A study of Mus musculus with 15 samples.

Results

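Histone genes were taken as the genes whose symbols begin with Hist1h to Hist4h, H2af, H1f or H3f, which gave 84 of the 24421 genes in the count table. Of these, 68 carry a Hist symbol and are called cluster genes here, since nearly all sit in histone gene clusters, and 16 are replacement histone genes. RNA was sequenced from primary proximal tubule cells of the kidney of C57BL/6 mice, the epithelium that takes back most of the filtered solutes, after a single passage in culture. The groups were female KO (4 libraries), female WT (4 libraries), male KO (3 libraries) and male WT (4 libraries), where KO mice were Diet1-/- and WT mice Diet1+/+. Diet1 was not analysed here. The labels state that a group's cells came from 3 to 4 mice, were mixed and were then divided into technical replicates. Each group is therefore 1 pool, so the p-values measure technical spread within a pool and say nothing of the spread between mice or between cultures.

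Histones are the proteins around which DNA is wound. H2A, H2B, H3 and H4 form the nucleosome core, and H1 binds the linker DNA between nucleosomes. Cluster genes are mostly made in S phase, when new DNA has to be packaged, and most of their mRNAs end in a conserved stem-loop in place of a poly(A) tail. The stem-loop is bound by the protein SLBP and is needed for processing, translation and timely decay of the mRNA. Some cluster genes also give polyadenylated mRNAs, above all in cells that have left the cell cycle. Replacement histone genes, such as those for H3.3, H2A.Z and macroH2A, are transcribed throughout the cell cycle and give ordinary polyadenylated mRNAs. Per the labels, the libraries were made with a strand-specific mRNA kit, and how the mRNA was selected is not given in the sources used here. A library from polyadenylated RNA holds few molecules of an mRNA that has no tail, so the cluster gene levels below are levels in these libraries and not in the cells.

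The stem-loop was looked for in GENCODE M21 transcripts of the members, as GG, any 2 bases, CTT, any base, T, any base, AG, any 2 bases and CC on the sense strand. It was found in 46 members, which were 45 of the 68 cluster genes and H2afx, against 0.187% of 141647 transcripts of other genes. Of the 23 cluster genes without a match, 18 have an annotated 3′ untranslated region under 60 bases, so their annotated ends are short. The forms below are shown because they are what sets these mRNAs apart from ordinary ones, in DNA letters, with the paired stem in capitals and the loop in lower case.
Hist1h2ab: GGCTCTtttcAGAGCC
Hist1h3e: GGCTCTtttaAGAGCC
Hist1h4h: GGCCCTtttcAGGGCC
Hist1h4i: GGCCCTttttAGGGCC
H2afx: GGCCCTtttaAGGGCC
The form of Hist1h2ab was shared by 25 genes, among them Hist1h1c, Hist1h1d, Hist1h1e, Hist1h3b and Hist3h2a. The form of Hist1h3e was shared by 6 genes, among them Hist1h2bb. The form of Hist1h4h was shared by 7 genes, all of them H4 genes. A poly(A) signal, AATAAA or ATTAAA, lay in the last 40 bases of an annotated transcript of 17 of the 68 cluster genes. H2afx, which encodes the H2A variant that is phosphorylated at DNA breaks, had both the stem-loop and a poly(A) signal.

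Promoters came from RefSeq on GRCm38.p6, as 250 bases before to 50 bases after each start, for 76 of the 84 members. Hist1h2bc and Hist2h2be had none in that table. On either strand, the octamer ATTTGCAT, known as an Oct-1 site of H2B genes, was in 22.2% of 63 cluster promoters, against 1.74% of all 32851 promoters. It was in 7 of 17 H2B and 7 of 18 H2A promoters, and in 0 of the H1, H3 and H4 promoters. CCAAT was in 85.7% of cluster promoters, against 37.4% of all, and TATAAA was in 55.6%, against 13.6% of all. All H1, H2A, H2B and H3 cluster promoters held CCAAT, and 3 of 12 H4 promoters did. The promoters of Hist1h2ab and Hist1h3b are shown because these genes rose in female KO cells, and that of H2afz because it rose in both sexes; capitals mark these motifs on either strand.
Hist1h2ab, chr13:23750838-23751137, plus strand: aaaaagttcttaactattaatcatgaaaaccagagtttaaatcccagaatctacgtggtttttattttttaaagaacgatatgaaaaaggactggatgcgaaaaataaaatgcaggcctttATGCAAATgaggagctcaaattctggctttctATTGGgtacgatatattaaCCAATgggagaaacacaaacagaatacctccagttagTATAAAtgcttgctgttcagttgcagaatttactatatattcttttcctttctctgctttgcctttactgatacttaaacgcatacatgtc
Hist1h3b, chr13:23752095-23752394, plus strand: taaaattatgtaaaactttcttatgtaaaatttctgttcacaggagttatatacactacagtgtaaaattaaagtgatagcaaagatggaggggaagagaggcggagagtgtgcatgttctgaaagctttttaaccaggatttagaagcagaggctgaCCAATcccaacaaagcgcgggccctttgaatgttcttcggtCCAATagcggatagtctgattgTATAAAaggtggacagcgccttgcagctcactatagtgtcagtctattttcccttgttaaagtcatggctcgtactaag
H2afz, chr3:137864237-137864536, plus strand: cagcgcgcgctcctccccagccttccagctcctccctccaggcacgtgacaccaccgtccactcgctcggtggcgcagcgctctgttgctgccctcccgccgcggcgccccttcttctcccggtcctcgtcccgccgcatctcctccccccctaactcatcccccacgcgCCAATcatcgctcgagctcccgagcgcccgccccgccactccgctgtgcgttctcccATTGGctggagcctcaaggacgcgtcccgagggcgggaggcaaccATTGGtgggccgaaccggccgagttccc
The Hist1h2ab promoter held the octamer, CCAAT on both strands and TATAAA, and the Hist1h3b promoter held CCAAT and TATAAA. The H2afz promoter held CCAAT and neither of the others. Of the 14 replacement promoters, 10 held CCAAT, and H3f3b alone held the octamer and TATAAA. A match is a string of letters and not a measured binding site.

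The libraries had 17648416 to 30896637 counts, and 3 counts, taken as the floor, correspond to 0.0971 to 0.170 CPM (counts scaled to a library of 1000000). Replacement genes held 311160 counts in all, or 88.7% of the histone counts, and cluster genes held 39639, or 11.3%. Cluster genes were 0.0124% of all counts. Of the 84 members, 15 had no count in any library, 11 of them cluster genes. Levels between genes were compared as mean CPM per kb of exon over the 15 libraries. H3f3b led with 137 CPM per kb, followed by H1f0 with 51.8, H2afz with 45.4, Hist1h2bc with 32.1, H2afx with 31.9 and Hist1h1c with 28.8. H3f3b and H3f3a encode the same H3.3 protein, and H1f0 encodes the linker histone known from cells that have stopped dividing. Hist1h1c, a linker histone gene, held 36.2% of the cluster counts, and Hist1h2bc, an H2B gene, held 29.8%. With Hist3h2a, an H2A gene, and Hist2h2be, an H2B gene, these 4 held 82.1%. The 17 cluster genes with an annotated poly(A) signal held 58.3%, and the other 51 held 41.7%.

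**Figure D1:**
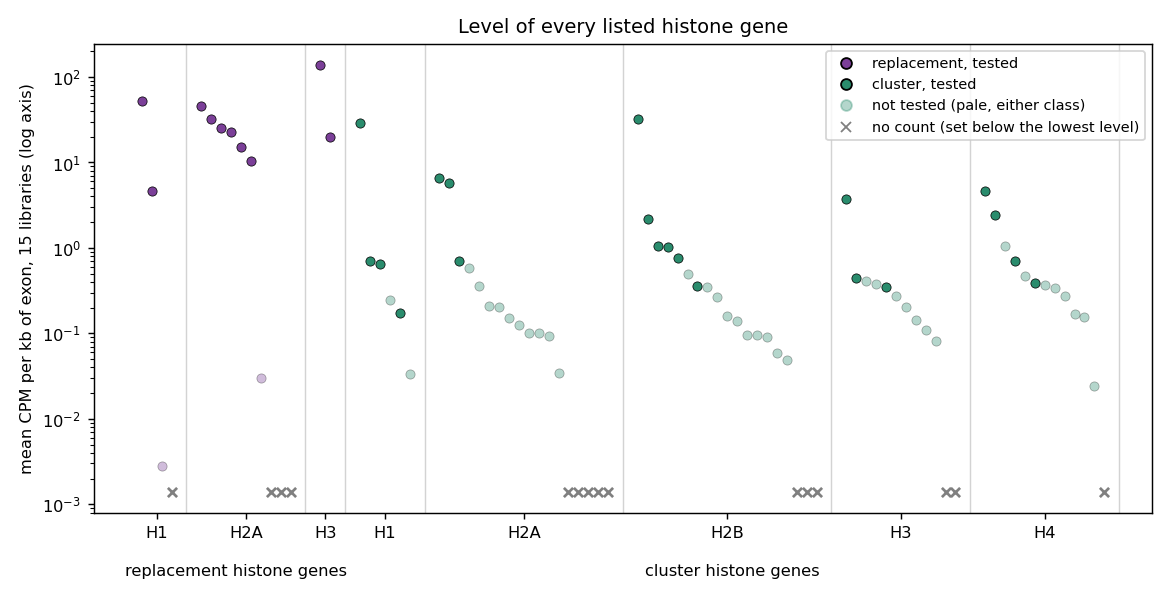
Mean CPM per kb of exon over the 15 libraries for each of the 84 histone genes, on a log axis, by class and histone type. Each point is a gene, pale points were not tested for low counts, and crosses mark the 15 genes with no count. H3f3b, at 137, stands highest, and in each cluster type 1 or 2 genes stand above the rest.

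Near-identical copies limit what a cluster gene's count can mean. Of the 50-base windows of their annotated transcripts, the 11 cluster genes with no count shared a median of 93.1% with another gene, and the 20 tested cluster genes a median of 31.0%. Whether reads that fit several genes were counted, and on which strand, is not given in the sources used here. The zero of such a gene is therefore uncertain. Among genes named below, the shared part was 73.4% in Hist1h3e, 60.4% in Hist1h3b, 58.0% in Hist1h2ab, 40.1% in Hist1h2bb, 35.4% in H2afz, 32.0% in Hist1h1e, 30.6% in Hist1h2bc, 2.25% in Hist1h1d and 0 in Hist1h1b. Hist1h1e also overlaps Hist1h2be on the same strand, so reads of these genes may be split between them.

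The tests covered 30 members with enough counts, 20 cluster and 10 replacement genes. The other 48 cluster genes had at most 17 counts in any library, and the other 6 replacement genes at most 3. Of the 20 tested cluster genes, 11 averaged at least 1 CPM over all libraries, whatever the group. The other 9 were near the minimum and could pass it through the group in which they were higher, so counts over all 20 are no support for a difference.

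Female KO cells had higher levels of several cluster genes than female WT cells, while Hist1h1c, which held the most counts, had about the same level. Among the 11 cluster genes of at least 1 CPM, 5 rose and 0 fell, where 21.9% of all 12638 genes at that level rose and 20.2% fell. The 5 were Hist1h1d, Hist1h1e, Hist1h2ab, Hist1h2bc and Hist1h3b, with fold changes between 1.17 and 1.70. Among all 20 tested, 8 rose and 0 fell (background 20.7% higher, 18.6% lower). The median log2 fold change was 0.23 over the 11 genes and 0.37 over the 20, against 0.00 over all genes tested. All tests are edgeR quasi-likelihood tests with Benjamini-Hochberg adjustment over all genes.

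Hist1h2bc (chr13:23684199-23692908, 2 exons) had 42.5, 39.4, 38.8 and 36.8 CPM in female KO libraries, against 32.2, 35.8, 34.1 and 32.0 CPM in female WT libraries. Every KO library was above every WT library. The log2 fold change was 0.23 ± 0.05 (SE, adjusted p = 1.93e-04, edgeR). Hist1h2ab (chr13:23751126-23751598), an H2A gene, had 3.03, 2.95, 2.54 and 2.84 CPM in female KO, against 2.13, 2.02, 1.17 and 1.71 CPM in female WT. The groups again did not overlap, and the log2 fold change was 0.69 ± 0.18 (adjusted p = 0.0024, edgeR). Hist1h3b (chr13:23752267-23752886), an H3 gene, had 3.77, 2.25, 1.94 and 1.98 CPM in female KO, against 1.42, 1.54, 1.56 and 1.82 CPM in female WT. The groups did not overlap, but the first KO library stood far above the other 3. Its log2 fold change of 0.60 ± 0.21 (adjusted p = 0.0218, edgeR) fell to 0.35 without that library (adjusted p = 0.178), and the call was also lost without the first WT library (adjusted p = 0.061).

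The linker histone genes Hist1h1d and Hist1h1e also rose. Hist1h1d (chr13:23553262-23560686) had 1.08, 2.10, 1.85 and 1.58 CPM in female KO, against 1.01, 1.12, 1.17 and 0.674 CPM in female WT. The first KO library lay within the WT range and the other 3 above it, with a log2 fold change of 0.77 ± 0.23 (adjusted p = 0.00714, edgeR). Hist1h1e (chr13:23620629-23622558) had 1.03, 2.497, 1.57 and 1.22 CPM in female KO, against 1.06, 0.798, 0.928 and 1.11 CPM in female WT. Its log2 fold change of 0.68 ± 0.24 (adjusted p = 0.0228, edgeR) fell to 0.38 without the second KO library (adjusted p = 0.224), and the call was lost without the second or the third WT library (adjusted p = 0.066 and 0.0508).

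The 3 other genes called were near the count minimum and could pass it through the group in which they were higher. Hist1h1b reached the minimum in 3 female KO and 0 female WT libraries. Hist1h2bb and Hist1h3e each reached it in 2 female KO and 0 female WT libraries. Their calls are therefore no support for a difference. Hist1h1b, another linker histone gene, had 0.228, 0.949, 0.785 and 0.81 CPM in female KO, against 0.101, 0.266, 0.342 and 0.238 CPM in female WT (log2 fold change 1.56 ± 0.45, adjusted p = 0.00545, edgeR). These are 4, 19, 17 and 18 counts in KO and 2, 5, 7 and 6 counts in WT. The first KO library stood within the WT range. Hist1h2bb, an H2B gene, had 0.4, 0.399, 0.554 and 0.855 CPM in female KO, against 0.101, 0.213, 0.391 and 0.238 CPM in female WT, with no overlap (log2 fold change 1.23 ± 0.42, adjusted p = 0.0203, edgeR). Hist1h3e, an H3 gene, had 0.342, 0.549, 0.554 and 0.27 CPM in female KO, against 0.0507, 0.0532, 0.0977 and 0.397 CPM in female WT (log2 fold change 1.35 ± 0.52, adjusted p = 0.0393, edgeR). The fourth WT library, with 10 counts, lay inside the KO range, while the other 3 had 1 or 2 counts. Without the first WT library Hist1h2bb was not called (adjusted p = 0.0733), and without any of the first 3 WT libraries Hist1h3e was not called (adjusted p = 0.102 to 0.119). In a DESeq2 Wald test neither was called (adjusted p = 0.0506 for Hist1h2bb and 0.0676 for Hist1h3e).

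Hist1h1c had 47.3, 42.1, 44.3 and 41.6 CPM in female KO, against 42.4, 45.8, 42.2 and 43.9 CPM in female WT, with full overlap (log2 fold change 0.01 ± 0.05, adjusted p = 0.931, edgeR). Hist3h2a averaged 14.5 ± 0.802 CPM in female KO and 14.6 ± 1.07 CPM in female WT (SD, n = 4 each). Hist2h2be averaged 5.30 ± 0.323 CPM in female KO and 5.42 ± 0.521 CPM in female WT. Neither was called. Of the 13 H4 genes, 4 were tested and 0 were called, with a median log2 fold change of 0.25.

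**Figure D2:**
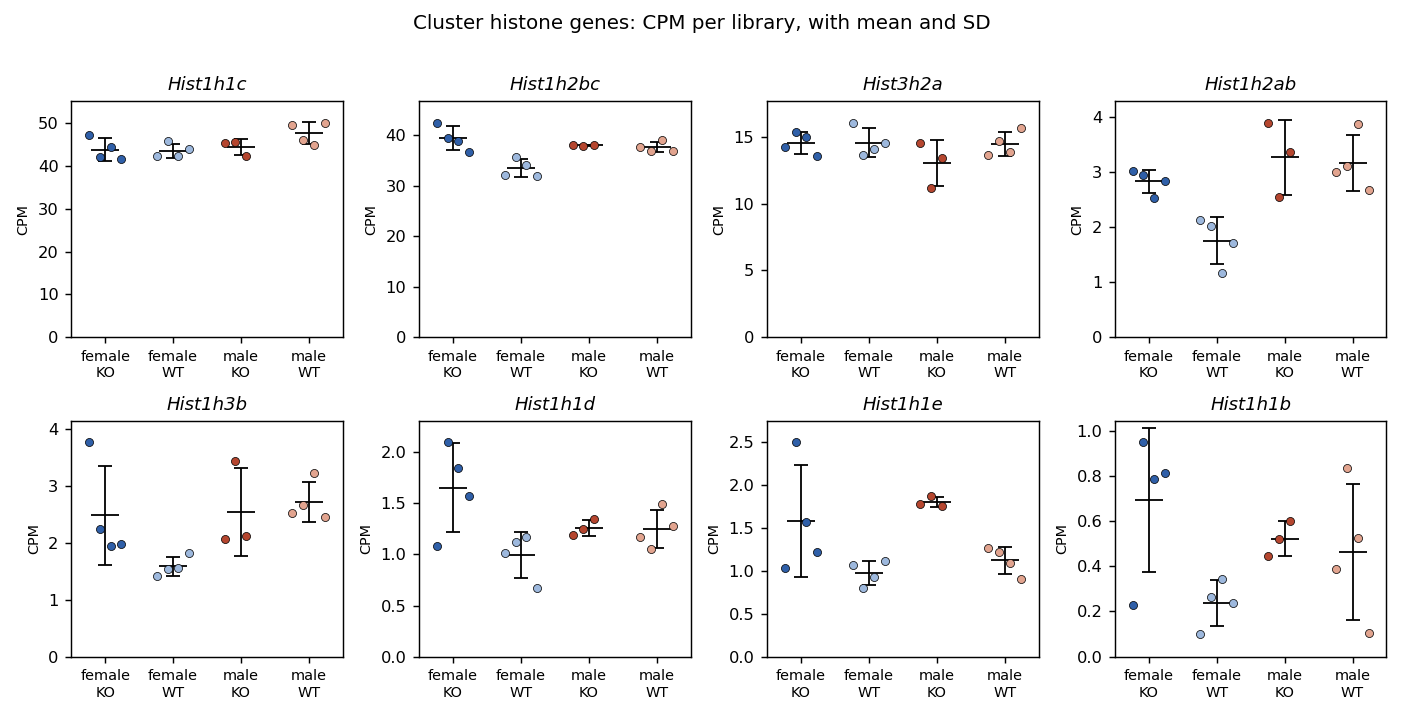
CPM of 8 cluster histone genes in each library (points), by group, with the group mean and SD (lines). Hist1h2ab, Hist1h2bc and Hist1h3b show no overlap between female KO and female WT, and Hist1h1c overlaps in all groups.

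Among the 11 cluster genes of at least 1 CPM, all 5 with no annotated poly(A) signal rose in female KO cells, with a median log2 fold change of 0.68. Of the 6 with a signal 0 were called, with a median of -0.0011. By stem-loop, 4 of 9 genes with a match and 1 of 2 without a match rose. This split was made with the values known and was given no test. The same search found no signal in the replacement genes H3f3b and H2afy, so a missing annotated signal does not show a missing tail. Among the 5 genes that rose, Hist1h2bc had no stem-loop match and an annotated 3′ untranslated region of 742 bases. Per kb of exon, Hist1h2bc, without a signal, was the highest of all cluster genes (32.1 CPM per kb), and Hist1h1c, with a signal, came next (28.8 CPM per kb).

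Summed over genes, cluster genes without an annotated signal had 58.8, 59.3, 54.4 and 52.0 CPM in female KO libraries, against 42.7, 47.6, 45.3 and 43.9 CPM in female WT libraries, a ratio of means of 1.25. Those with a signal had 74.4, 69.8, 70.8 and 67.0 CPM in female KO, against 71.4, 73.7, 70.2 and 70.8 CPM in female WT, a ratio of 0.986. The first set did not overlap and the second did. Most of the first sum is Hist1h2bc, itself a called gene. It held 29.8% of all cluster counts, where all 51 genes without a signal held 41.7%. The 48 untested cluster genes together had 5.61, 7.49, 4.57 and 5.21 CPM in female KO, against 3.09, 4.37, 4.11 and 4.18 CPM in female WT, again without overlap. By type, the H3 cluster genes had the highest ratio, 1.73. They had 6.35, 5.39, 4.25 and 3.74 CPM in female KO and 2.73, 2.43, 2.77 and 3.496 CPM in female WT. Of the 12 H3 cluster genes, 3 were tested. Among them Hist1h3b averaged 2.48 CPM in female KO and 1.59 CPM in female WT. Its call was lost without the first KO library. The ratio was 1.25 for H4, 1.12 for H2B, 1.04 for H2A and 1.02 for H1.

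The level of RNAs made without a poly(A) tail differed between libraries, and its part in these results was not tested. The 20 listed genes for such RNAs, chiefly the RNase components Rmrp and Rpph1, summed to 18.4, 57.3, 27.2 and 32.6 CPM in female KO, against 10.5, 29.96, 34.6 and 30.1 CPM in female WT. In male KO the sums were 14.9, 28.8 and 36.4 CPM, against 8.80, 28.0, 18.3 and 28.6 CPM in male WT. The libraries numbered 1 were the lowest in all 4 groups, and the second female KO library was the highest of all. The second female KO library was also highest for Hist1h1b, Hist1h1d and Hist1h1e. For Hist1h2ab, Hist1h2bc and Hist1h3b the highest female KO library was the first, whose sum was the lowest of its group (18.4 CPM). The first and second libraries were close for Hist1h2ab, at 3.03 and 2.95 CPM. For Hist1h3e and Hist1h2bb the highest female KO library was the third and the fourth. Of the 4 tested genes for RNAs without a tail, 0 were called in either sex. Over all genes, 20.7% rose and 18.6% fell in females, and 10.1% rose and 10.1% fell in males. With 4 genes, 0 calls cannot be told from these shares. Without the 4 libraries numbered 1, 5 cluster genes rose in female KO cells, where 2634 of all 13985 genes tested rose. Hist1h3b, Hist1h3e and Hist1h2bb then did not pass (adjusted p = 0.293, 0.0988 and 0.0515, edgeR).

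In male cells the cluster genes showed little difference. Of the 20 tested, 1 rose and 0 fell in male KO cells (background 10.1% higher, 10.1% lower). Of the 11 genes of at least 1 CPM, it was likewise 1, where 10.5% of all genes at that level rose and 11.1% fell. The median log2 fold change was -0.05 over the 11 genes and 0.03 over the 20. The gene was Hist1h1e, with 1.78, 1.87 and 1.76 CPM in male KO, against 1.26, 1.22, 1.09 and 0.908 CPM in male WT. The groups did not overlap, with a log2 fold change of 0.67 ± 0.24 (adjusted p = 0.0473, edgeR). The call was lost in 11 of 15 fits that left out 1 library, with adjusted p up to 0.119, without the 4 libraries numbered 1 (adjusted p = 0.0642), and in a DESeq2 Wald test (adjusted p = 0.0888).

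Hist1h2bc had 38.0, 37.9 and 38.1 CPM in male KO, against 37.7, 36.9, 39.1 and 37.0 CPM in male WT, and Hist1h1c had 45.5, 45.5 and 42.4 CPM in male KO, against 49.7, 46.0, 44.9 and 50.1 CPM in male WT. Neither was called (log2 fold changes 0.01 ± 0.05 and -0.10 ± 0.05). Hist1h2ab had 3.90, 2.55 and 3.38 CPM in male KO, against 3.01, 3.11, 3.88 and 2.67 CPM in male WT, and its groups overlapped. Hist1h3b averaged 2.54 ± 0.769 CPM in male KO and 2.72 ± 0.352 CPM in male WT (SD, n = 3 and 4). Hist1h1d averaged 1.26 ± 0.0786 CPM in male KO and 1.25 ± 0.188 CPM in male WT. For all cluster genes together the ratio of KO to WT was 0.981 in males and 1.09 in females.

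For Hist1h2ab, Hist1h2bc and Hist1h3b the female WT libraries were the low ones among the 4 groups. The same held for H2afz and for the summed S phase genes, both given below. Hist1h2ab was 2.54 to 3.03 CPM in female KO and 2.55 to 3.90 CPM in male KO, against 1.17 to 2.13 CPM in female WT and 2.67 to 3.88 CPM in male WT. Hist1h2bc was 36.8 to 42.5 CPM in female KO and 37.9 to 38.1 CPM in male KO, against 32.0 to 35.8 CPM in female WT and 36.9 to 39.1 CPM in male WT. Hist1h3b was 1.94 to 3.77 CPM in female KO and 2.07 to 3.43 CPM in male KO, against 1.42 to 1.82 CPM in female WT and 2.46 to 3.23 CPM in male WT. For Hist1h1b, Hist1h1d and Hist1h1e the female WT and male WT libraries overlapped. No test was made between the sexes within a genotype.

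Among replacement histone genes, H2afz was higher in KO cells of both sexes. It encodes H2A.Z, a variant placed next to the starts of active genes. H2afz (chr3:137864487-137866922, 3 exon blocks) had 88.6, 85.0, 83.4 and 83.2 CPM in female KO, against 67.7, 69.7, 66.9 and 71.4 CPM in female WT. In males it had 88.9, 95.5 and 98.6 CPM in KO, against 82.5, 76.0, 76.3 and 76.6 CPM in WT. The groups overlapped in neither sex. The log2 fold change was 0.30 ± 0.04 in females (adjusted p = 7.44e-08) and 0.27 ± 0.04 in males (adjusted p = 2.99e-06, edgeR). H2afv encodes the second H2A.Z and went the other way in females, with 24.5, 23.2, 26.1 and 22.2 CPM in female KO, against 26.01, 27.2, 26.4 and 30.3 CPM in female WT. The groups overlapped slightly, with a log2 fold change of -0.20 ± 0.06 (adjusted p = 0.00815, edgeR), which was lost without the fourth WT library (adjusted p = 0.0697). In males H2afv averaged 22.9 ± 1.48 CPM in KO and 23.9 ± 0.940 CPM in WT and was not called.

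In female KO cells 1 of the 10 tested replacement genes rose and 4 fell, against the background of 20.7% and 18.6%. The median log2 fold change was -0.06. Those that fell, besides H2afv, were both H3.3 genes and the linker histone gene H1f0, with fold changes between 0.919 and 0.948. H3f3b had 404, 401, 432 and 397 CPM in female KO, against 434, 430.0, 436 and 425 CPM in female WT. The third KO library lay among the WT libraries and the other 3 below them (log2 fold change -0.08 ± 0.03, adjusted p = 0.0217, edgeR). H3f3a had 70.8, 66.8, 72.4 and 66.0 CPM in female KO, against 73.1, 74.0, 76.7 and 72.4 CPM in female WT (log2 fold change -0.10 ± 0.04, adjusted p = 0.0249, edgeR). H1f0 had 109, 106, 98.7 and 98.6 CPM in female KO, against 114, 115, 112 and 108 CPM in female WT (log2 fold change -0.12 ± 0.04, adjusted p = 0.0152, edgeR). For both, the highest KO library was level with or above the lowest WT library and the other 3 KO libraries lay below it. Leaving out 1 library ended the H3f3b call in 4 of 15 fits, the H3f3a call in 3 and the H1f0 call in 2, with adjusted p up to 0.0923.

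In male KO cells 3 of the 10 tested replacement genes rose and 0 fell, where 10.1% of all genes rose. Besides H2afz these were H3f3b and H2afy2. H3f3b had 405, 415 and 413 CPM in male KO, against 373, 389.8, 392 and 374 CPM in male WT, without overlap (log2 fold change 0.10 ± 0.03, adjusted p = 0.00867, edgeR). H2afy2, which encodes a macroH2A with a large domain beyond the histone fold, had 23.4, 22.6 and 23.5 CPM in male KO, against 20.6, 21.5, 20.9 and 19.9 CPM in male WT. The groups did not overlap (log2 fold change 0.16 ± 0.06, adjusted p = 0.0477, edgeR), but the call was lost in 8 of 15 fits that left out 1 library, with adjusted p up to 0.156. It was also lost with no filter, with only the groups compared and in a DESeq2 Wald test (adjusted p = 0.0759, 0.0688 and 0.0878), and without the 4 libraries numbered 1 (adjusted p = 0.148). In females H2afy2 averaged 24.6 ± 0.897 CPM in KO and 22.6 ± 1.30 CPM in WT (adjusted p = 0.0677, edgeR). The other macroH2A gene, H2afy, averaged 171 ± 4.86 CPM in female KO and 175 ± 2.61 CPM in female WT, and 174 ± 1.81 CPM in male KO and 171 ± 4.45 CPM in male WT. H2afx averaged 44.4 ± 4.24 CPM in female KO and 40.2 ± 1.40 CPM in female WT, and 49.1 ± 1.67 CPM in male KO and 43.9 ± 4.45 CPM in male WT. Neither H2afy nor H2afx was called in either sex.

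**Figure D3:**
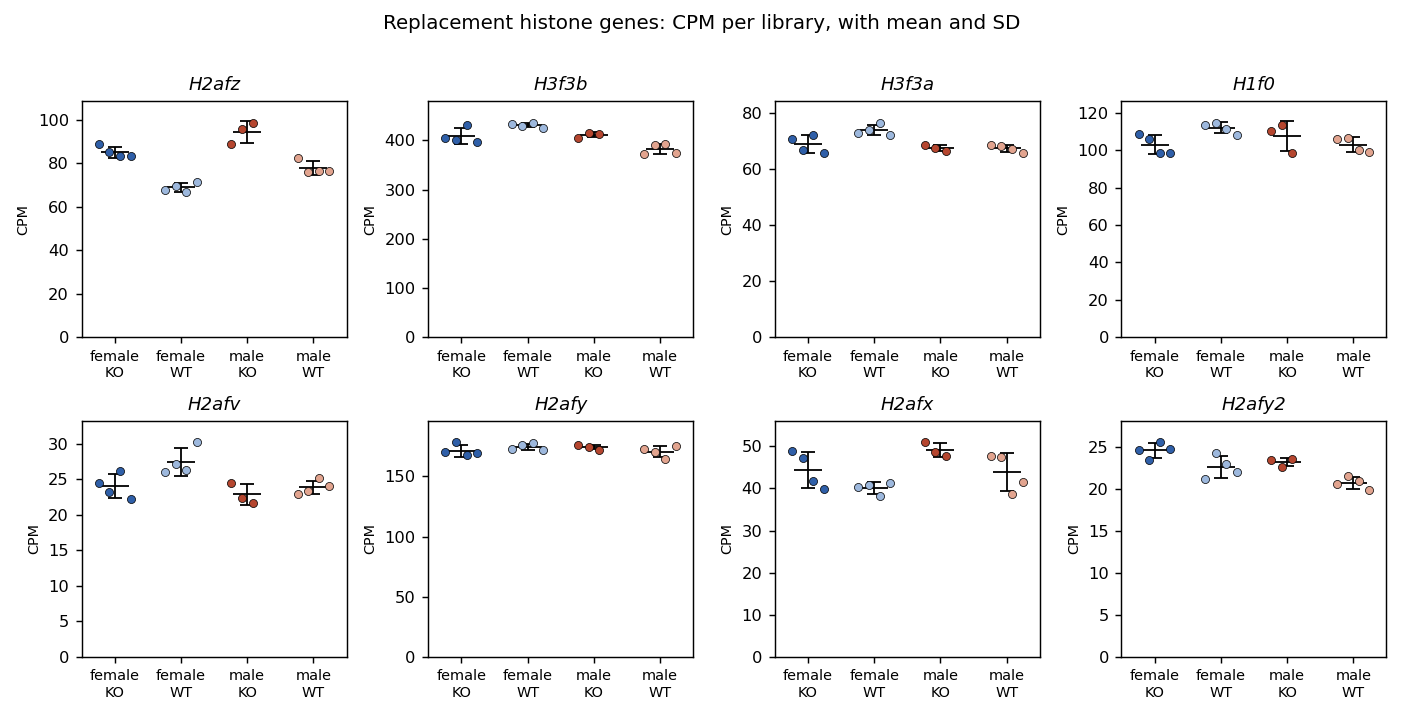
CPM of 8 replacement histone genes in each library (points), by group, with the group mean and SD (lines). H2afz is higher in KO than in WT in both sexes without overlap, and H3f3b is higher in KO in males and lower on average in KO in females.

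Whether the KO effect differed between the sexes was tested as the female effect minus the male effect. Of the 30 tested members, 1 was called higher and 2 lower, where 9.76% and 5.89% of all genes were. The difference was -0.18 ± 0.04 for H3f3b (adjusted p = 0.00106), -0.18 ± 0.06 for H1f0 (adjusted p = 0.0302) and 0.22 ± 0.07 for Hist1h2bc (adjusted p = 0.0256, edgeR). The H3f3b call held in all 15 fits that left out 1 library, that of H1f0 in 7 (adjusted p up to 0.113) and that of Hist1h2bc in 8. The Hist1h2bc difference was 0.16 without the 4 libraries numbered 1 (adjusted p = 0.185), 0.18 with library size only (adjusted p = 0.0719) and 0.22 in a DESeq2 Wald test (adjusted p = 0.0502). Hist1h2ab, Hist1h3b and Hist1h1d, called in females and not in males, had differences of 0.65 ± 0.25, 0.71 ± 0.29 and 0.76 ± 0.33 that did not pass (adjusted p = 0.0723, 0.0981 and 0.127, edgeR).

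**Figure D4:**
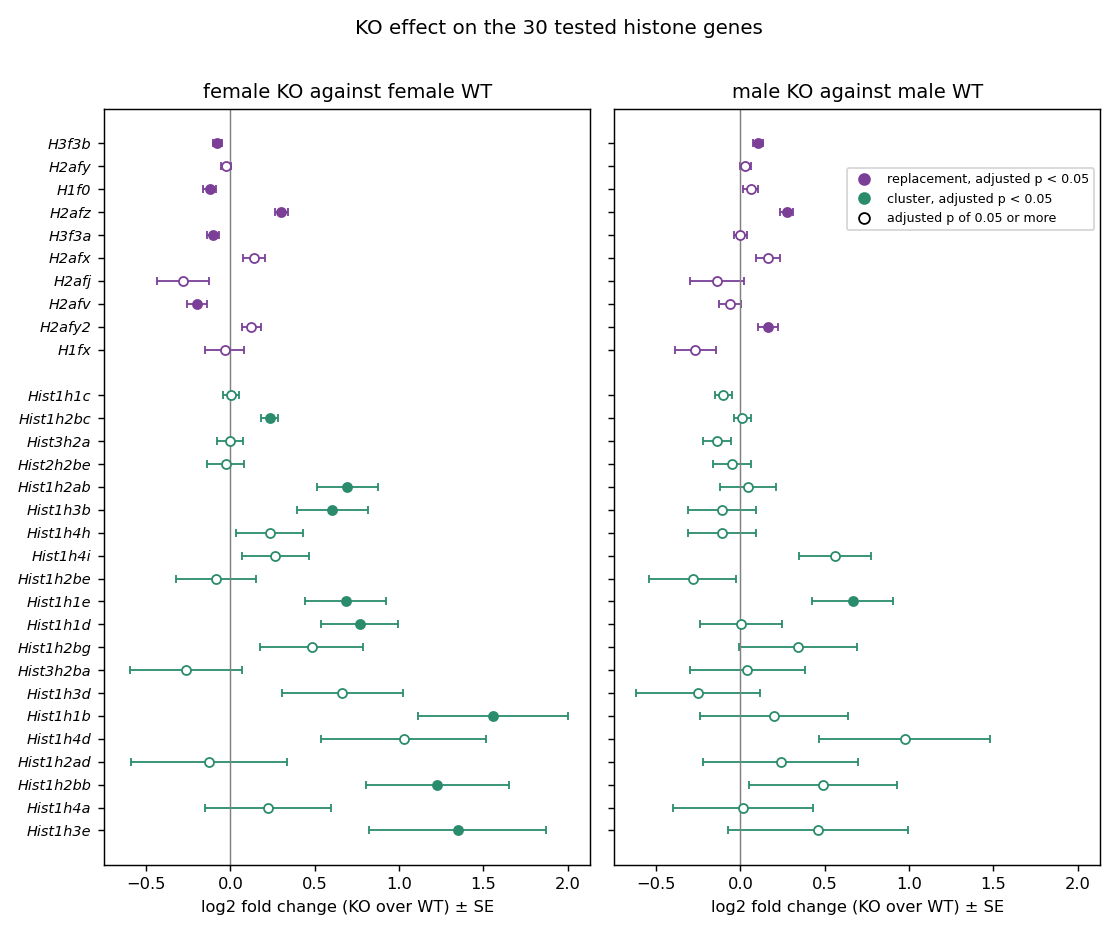
Log2 fold change (KO over WT, with SE) of the 30 tested histone genes in females (left) and males (right), ordered within each class by mean CPM. Filled points have an adjusted p below 0.05, which holds for 8 cluster genes above 0 in females and for 1 in males.

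Counted by whether libraries overlapped, 4 of the 20 cluster genes were higher in every female KO library than in any female WT library, where 19.4% of all genes were, and 2 in males, where 13.9% were. The reverse held for 0 cluster and 0 replacement genes in either sex, where it held for 16.7% of all genes in females and 13.7% in males. Of the 10 replacement genes, 1 was higher in females and 4 in males in this sense. The 4 and 2 cluster genes are near the shares of all genes and are no support for a difference. The 4 include Hist1h2bb, which reached the count minimum in 2 female KO and 0 female WT libraries.

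Genes that handle histone mRNA and histone proteins were taken from 2 lists written from general knowledge. Of 22 genes for histone transcription and pre-mRNA processing, 7 rose and 2 fell in female KO cells, and 2 rose and 0 fell in male KO cells. Over all genes, 20.7% rose and 18.6% fell in females, and 10.1% rose and 10.1% fell in males, so the male count is near the background. Slbp, whose protein binds the stem-loop, averaged 25.8 ± 1.27 CPM in female KO and 24.6 ± 1.53 CPM in female WT, which was not called. In males Slbp averaged 28.8 ± 1.41 CPM in KO and 24.5 ± 0.678 CPM in WT (log2 fold change 0.23 ± 0.06, adjusted p = 0.00375, edgeR). Npat, a coactivator at cluster histone promoters, averaged 53.7 ± 3.89 CPM in female KO and 59.8 ± 1.86 CPM in female WT (log2 fold change -0.15 ± 0.05, adjusted p = 0.0242, edgeR). Eri1, a nuclease that trims the end of histone mRNA, averaged 39.6 ± 1.59 CPM in female KO and 35.1 ± 0.119 CPM in female WT and rose. Mybl2, a transcription factor of dividing cells, had the largest change of this list, to 10.3 ± 1.23 CPM in female KO, against 5.09 ± 0.593 CPM in female WT.

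Of 36 genes for histone chaperones and deposition, 21 rose and 1 fell in female KO cells, and 10 rose and 0 fell in male KO cells, where 20.7% of all genes rose in females and 10.1% in males. The median log2 fold change was 0.16 in females and 0.07 in males. The 1 gene that fell in females was Cabin1. It had 126, 134, 138 and 136 CPM in female KO, against 142, 143, 139 and 143 CPM in female WT. Cenpa, which encodes the centromeric H3, had 19.3, 19.4, 19.5 and 18.8 CPM in female KO, against 10.04, 12.1, 9.91 and 11.3 CPM in female WT, and 20.7, 20.6 and 21.6 CPM in male KO, against 16.4, 16.3, 15.9 and 16.5 CPM in male WT. It rose in both sexes without overlap. Nasp, a chaperone for H3 and H1, averaged 63.6 ± 3.08 CPM in female KO and 50.1 ± 2.35 CPM in female WT, and 69.4 ± 1.49 CPM in male KO and 56.0 ± 1.91 CPM in male WT. Chaf1a, a subunit of the CAF-1 complex that deposits new H3 and H4 behind the replication fork, averaged 25.6 ± 2.46 CPM in female KO and 17.2 ± 0.853 CPM in female WT. It also rose in males, as did the histone chaperone gene Asf1b.

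Most S phase genes were higher in KO cells of both sexes. Of 44, 37 rose and 0 fell in female KO cells and 25 rose and 0 fell in male KO cells, with median log2 fold changes of 0.49 and 0.22. Over all genes, 20.7% rose in females and 10.1% in males. The summed level was 1147, 1164, 1162 and 1158 CPM in female KO, against 848, 849.7, 859 and 861 CPM in female WT, and 1256, 1263 and 1292 CPM in male KO, against 1105, 1087, 1086 and 1071 CPM in male WT. The groups did not overlap in either sex. Rrm2, a subunit of the enzyme that makes deoxynucleotides, averaged 65.8 ± 1.66 CPM in female KO and 33.3 ± 0.509 CPM in female WT, and 79.1 ± 2.52 CPM in male KO and 60.1 ± 2.40 CPM in male WT. In males the ratio of KO to WT was 1.17 for the S phase sum and 0.981 for the cluster sum. Without Hist1h1c, Hist1h2bc, Hist2h2be and Hist3h2a, which hold most cluster counts, the ratio of the other 64 cluster genes was 1.08 in males and 1.39 in females, and that of cluster genes without an annotated signal was 1.04 in males. The S phase list holds genes of dividing cells. The part of the S phase and chaperone lists in the histone results was not tested.

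**Figure D5:**
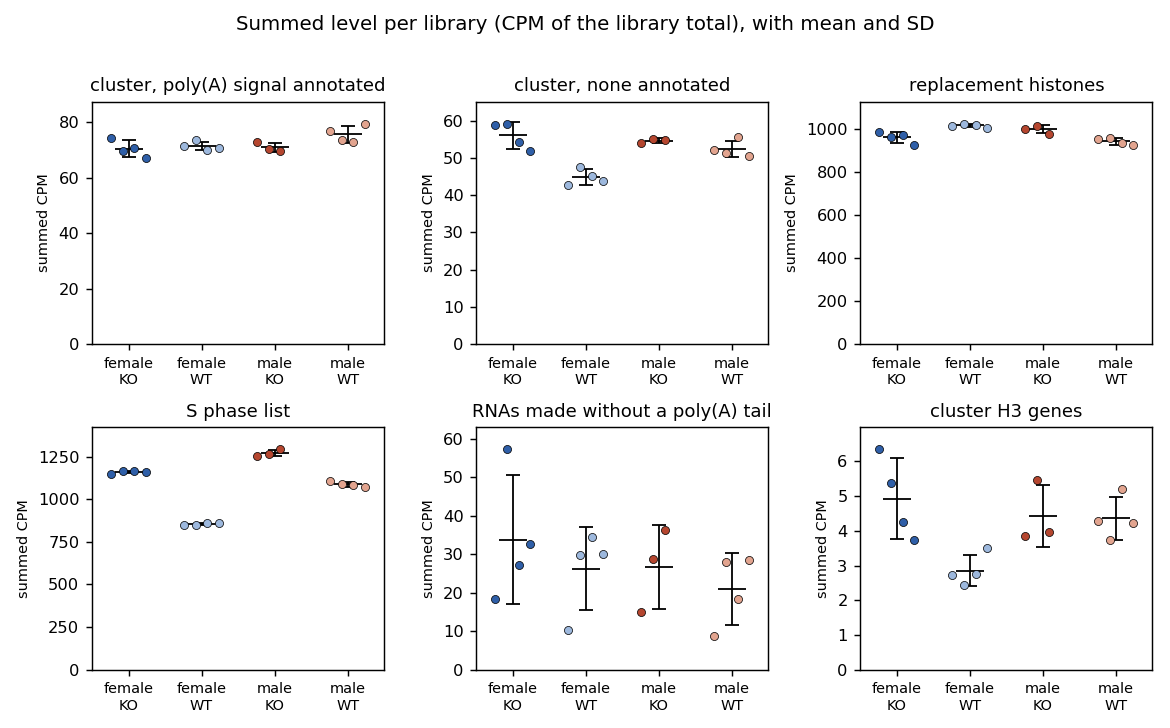
Summed CPM per library of 4 histone gene sets, the S phase list and RNAs made without a poly(A) tail (points), with the group mean and SD (lines). Cluster genes without an annotated poly(A) signal and the S phase list are higher in all female KO than in all female WT libraries, and RNAs without a tail are lowest in the libraries numbered 1.

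Other cell types were present in the pools and differed between groups, and in such bulk samples fewer cells of a type and less RNA per cell cannot be told apart. The summed level of 7 fibroblast markers, nearly all of it Col1a1 and Col1a2, was 2514 to 2717 CPM in female KO, against 3608 to 3886 CPM in female WT, and 1777 to 1972 CPM in male KO, against 3414 to 3657 CPM in male WT. Lum had 11 counts in all libraries and was not tested. Without Col1a1 and Col1a2 the sum was 201 to 221 CPM in female KO, against 296 to 322 CPM in female WT, and 130 to 141 CPM in male KO, against 217 to 241 CPM in male WT. Of 6 tested, 4 fell and 1 rose in females, and 5 fell in males. The 5 endothelial markers fell in males, to 24.6 to 28.4 CPM in KO, against 62.2 to 66.9 CPM in WT, and in females their sum was 24.7 to 33.5 CPM in KO, against 23.5 to 29.0 CPM in WT. Of 7 leukocyte markers, 3 rose in each sex, and their sum was 39.97 to 52.0 CPM in female KO, against 33.5 to 39.2 CPM in female WT, and 30.5 to 32.5 CPM in male KO, against 20.6 to 25.1 CPM in male WT. Of 5 podocyte markers, 3 rose and 1 fell in females and 1 fell in males. Of 5 tested distal nephron and collecting duct markers, 3 fell in females and 1 in males. Of 10 tested proximal tubule markers, 3 rose and 3 fell in females, and 3 rose and 1 fell in males. The sum of all 14 was 3815 to 4020 CPM in female KO, against 3163 to 3252 CPM in female WT, and 4494 to 4595 CPM in male KO, against 3473 to 3766 CPM in male WT. Krt8 and Krt18 carried most of it, and the other 12 summed to 475 to 509 CPM in female KO, against 550 to 566 CPM in female WT, and to 576 to 595 CPM in male KO, against 548 to 607 CPM in male WT. Of the proximal tubule markers Slc34a1, Slc22a6 and Slc22a8 were near 0, with 4, 1 and 1 counts in all libraries, while Krt8, Pax8 and Cdh16 were well detected. Of 32 ribosomal protein genes, 29 rose in females and 27 in males. Over all genes, 20.7% rose and 18.6% fell in females, and 10.1% rose and 10.1% fell in males. In a list of 5 to 10 tested markers, 1 call cannot be told from these shares. The part of the cell type and ribosomal differences in the histone results was not tested.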

How the data were processed

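RNA had been extracted with Trizol and cleaned on RNeasy columns, per the labels. The authors deposited a table of raw counts for each gene symbol. Per the submitters' processing notes, STAR 2.6.1 and featureCounts were used on mm10, and edgeR 3.26.8 and limma 3.40.6 are also named. Annotation, strand setting and the treatment of reads that fit several genes are not given in the sources used here. CPM values, also deposited, equal the counts over their library total within 1e-06 and were used only for that check.

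Counts were analysed with edgeR 4.0.16 in R 4.3.3. Genes passed filterByExpr (minimum count 10, minimum total 15), which left 13912. TMM scaling and a quasi-likelihood model of the 4 group means over all 15 libraries were used, with a biological coefficient of variation of 3.59%. CPM of genes are TMM-scaled, and sums are per library total. Standard errors are the log2 fold change divided by the root of its F statistic. A call needed an adjusted p (Benjamini-Hochberg) under 0.05. The method was tested on simulated data. No pair of replicate libraries agreed within sampling noise.

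Named members were the 6 of each class with the highest mean CPM, up to 5 called per class, sex and direction, and those called for the difference between sexes. The members, lists and rule were chosen with earlier results of these data known. Alternatives were other scalings, DESeq2 1.42.0, other filters, the replicate number as a block, a model of only the 2 groups compared, and fits without each library or, chosen after seeing the data, the 4 libraries numbered 1. Gene positions are from GENCODE M21 on GRCm38 and promoters from RefSeq on GRCm38.p6.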

Additional observations from a re-analysis of the deposited data

Results flagged for a closer look

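In groups of 4 libraries, a library was singled out where its gap to the nearest other, divided by the range of the group, passed Dixon's critical value. Of 90 such tests, 3 passed, and chance gives about 1 in 20. H2afz had 82.5 CPM in the first male WT library, above the other 3 but below all male KO libraries. Hist1h3b had 3.77 CPM in the first female KO library, where the other 3 had 1.94 to 2.25 CPM. Hist1h3e had 0.397 CPM in the fourth female WT library, where the other 3 had 0.0507 to 0.0977 CPM.

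The KO effect was called different between females and males in 3 of the 30 tested members by edgeR's test of the difference itself. Over all genes, 9.76% were called higher and 5.89% lower, so the 3 calls are not above the background. For H3f3b the log2 difference, female minus male, was -0.18, with a lower level in female KO and a higher level in male KO. For H1f0 it was -0.18, and for Hist1h2bc it was 0.22. The calls of H1f0 and Hist1h2bc held in only 7 and 8 of 15 fits that left out 1 library.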

How the results depend on the processing

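Counts of called members moved with the settings as follows. In males, the 1 cluster gene became 0 in a DESeq2 Wald test and without the libraries numbered 1, and 0 to 2 when 1 library was left out. In females, the 8 cluster genes that rose became 5 with a minimum of 1 CPM over all libraries, 5 with only the groups compared and 5 without the libraries numbered 1, and 5 to 9 when 1 library was left out, with 5 without the first female WT library. Without a filter 1 low-count cluster gene, Hist1h2bl, fell. The 1 replacement gene that rose in females became 2 with the replicate block, and 1 to 2 when 1 library was left out, while the 4 that fell became 1 to 5, with 2 without the third female WT or the second female KO library and 1 without the fourth female KO library. In males the 3 replacement genes became 2 to 3. For the difference between sexes, the 1 higher call became 0 with library size only and 0 in a DESeq2 Wald test, and 0 to 1 when 1 library was left out, and the 2 lower calls became 1 to 2. The 3 genes for histone processing and chaperones that fell in females became 1 to 4. For changes not due to fewer genes or samples, the cause was not tested. With library size only, 2288 genes rose and 3441 fell in females, against 2884 and 2585. Over all genes in females, 2769 of 12638 rose with the 1 CPM minimum and 2809 of 13502 with only the groups compared. Without the libraries numbered 1, 2634 of 13985 rose. When 1 library was left out, 2550 to 2968 genes rose and 2293 to 2798 fell in females, and 1010 to 1555 rose in males.

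The log2 fold changes that turned round were all uncalled and lay between -0.11 and 0.20. For Hist1h1c in females (0.01) they were -0.032 with library size only, -8.64e-05 with only the groups compared, -0.046 without the libraries numbered 1 and -0.034 to 0.030 when 1 library was left out. For Hist3h2a in females (-0.0034) they were 0.050 without the libraries numbered 1 and -0.034 to 0.044. For Hist1h2ab in males (0.044) they were -0.13 without the libraries numbered 1 and -0.093 to 0.19. For H3f3a in males (0.00029) they were -0.00325 with the 1 CPM minimum, -0.000317 with only the groups compared, -0.000845 without the libraries numbered 1 and -0.0079 to 0.010. When 1 library was left out, the range was -0.099 to 0.040 for Hist2h2be in males and -0.081 to 0.013 in females, and in males it was -0.37 to 0.018 for Hist1h3b, -0.062 to 0.53 for Hist1h1b and -0.049 to 0.11 for Hist1h1d. With the replicate block, Hist1h2bc (-0.0088), Hist1h1d (-0.055) and H3f3a (-0.013) turned round in males.

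The labels do not say that equal replicate numbers mark anything shared, so the main model had no block. Deviations of same-numbered libraries correlated at -0.028 to 0.165 (median 0.030, 21 pairs). Those of other pairs correlated at -0.113 to 0.071 (median -0.0055, 63 pairs). A correlation over 0.1 occurred in 1 of the 21 pairs and in 0 of the 63. What equal numbers may share was not tested. With the replicate block, 3105 genes rose and 2804 fell in females and 1566 rose and 1526 fell in males. In males Hist1h1e (adjusted p = 0.0674) and H2afy2 (adjusted p = 0.0650) were then not called. At this depth 48 of 68 cluster genes had too few counts to test.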
